A study of Mus musculus with 12 samples.

Results

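The comparison described here set hematopoietic cells of Ts1Cje mice against hematopoietic cells of B6 (wild type) mice, neither group expressing added Trib1. It was taken from the labels alone: the 3 arrays titled Ts1Cje and the 3 titled B6, which are 6 of the 12 arrays of the series, with every probe set except the controls. After a filter on dim signals the comparison covered 12560 genes. Ts1Cje mice carry, in addition to the usual pair of chromosomes 16, a further copy of the distal part of that chromosome, which is joined to the end of chromosome 12 and holds genes whose human counterparts lie on chromosome 21. Both groups were grown in IMDM to which serum (10%) was added together with IL-3 at 5 ng/ml, a cytokine that sustains myeloid progenitors in culture, and received no treatment. Labelled RNA was made from 100 ng of total RNA. The labels do not give the animals' age, the organ, a sort, the days in culture or whether the replicates came from separate mice or cultures, so each p-value rests on array-to-array spread alone, and that spread may be technical. The remaining 6 arrays held acute myeloid leukaemia (AML) lines expressing Trib1, a pseudokinase that drives this leukaemia in mice, on the same pair of backgrounds. They entered the fit to estimate the spread, and as the setting in which the same genotype difference was measured again. They also took part in the filter and in the choice of each gene's probe set. A filter over the 6 arrays compared kept 12126 genes.

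Blood cells arise from stem and progenitor cells that keep CD34, MEIS1 and other early regulators while they can still take several fates. Cells that become neutrophils first make the enzymes of primary granules, such as myeloperoxidase and elastase, and later those of secondary and tertiary granules, such as lactoferrin and lipocalin 2. The monocyte branch takes up the CSF1 receptor, complement component C1q and scavenger receptors. B-cell precursors rearrange their antigen receptor genes and carry the surrogate light chain, and megakaryocytes build platelet adhesion receptors under the control of GATA1 and its cofactor FOG1.

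Of the 12560 genes, 6602 (52.6%) passed the test, meaning that limma's p-value adjusted by Benjamini and Hochberg was under 0.05. They were 2925 genes higher in Ts1Cje cells (23.3%) and 3677 lower (29.3%). Most of these differences were small: the median size among genes that passed was 0.26 on the log2 scale, and the smallest that passed was 0.077. At least 2-fold differences were found for 63 higher genes (0.502%) and 102 lower genes (0.812%), on the log2(intensity + 15) scale used throughout, which draws the differences of dim genes towards 0. The arrays of the groups did not overlap for 7578 genes (60.3%). The balance between higher and lower calls depended on the scaling, with 44.3% of the called genes higher in the values as deposited and 65.0% after each array's log2 values were centred on their median. The centred count is therefore given below for lists whose balance of higher and lower genes it changes most.

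Intensities on the 6 arrays reached between 8041 and 8685, and the 75th percentile was 164, 165 and 165 on the B6 arrays and 162, 149 and 152 on the Ts1Cje arrays 1, 2 and 3. Ts1Cje array 1 thus resembled the B6 arrays in this respect more than it did the other Ts1Cje arrays. Genes of intermediate intensity carried the excess of lower calls: between 100 and 300, 20.2% of genes were higher and 42.3% lower, whereas under 50 the shares were 20.8% and 9.8%. Correlations across genes were 0.997 to 0.999 within a group and 0.983 to 0.987 between the groups, and the first principal component, with 86.1% of the variance, separated the groups. Genes of the blood cell lineage in general were strong on all arrays, with Ptprc (CD45) at 3037 in B6 and 2918 in Ts1Cje cells, and 7 of 16 such genes were higher and 1 lower. Trib1 itself did not pass the test, with 78.5, 82.1 and 68.2 on the B6 arrays and 70.5, 69.5 and 76 on the Ts1Cje arrays. Xist, transcribed from the inactive X chromosome of female cells, read 1313 to 1324 on the B6 arrays and 1070 to 1106 on the Ts1Cje arrays, and the Y-linked Eif2s3y read 516 to 561 and 419 to 489, so both signals were present on each of these arrays.

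**Figure D1:**
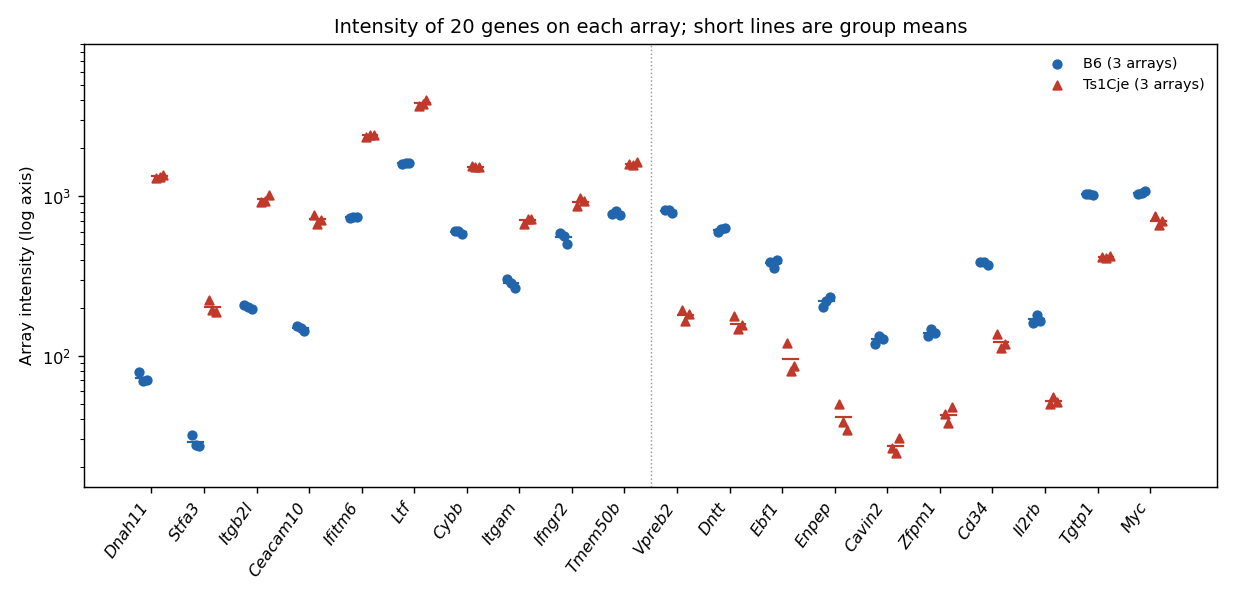
Intensity of 20 genes on each of the 6 arrays, on a log axis, with blue circles for B6 arrays, red triangles for Ts1Cje arrays and a short line at each group mean. Left of the dotted line are 10 genes that were higher in Ts1Cje cells, led by Dnah11 (72.7 against 1332), and right of it 10 that were lower, led by Vpreb2 (810 against 180); no gene shown has overlapping groups.

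The largest differences fell into recognisable groups. Among the 15 largest rises were the neutrophil genes Itgb2l, Ceacam10, Lrg1, Padi4 and Olfm4, the stefins Stfa3 and Stfa2l1, and the IgE receptor subunit Fcer1a. Rnase2a, a ribonuclease of eosinophil granules, and Chil1, a chitinase-like secreted protein, were also among them. The remaining 5 were Dnah11, Mrgpra2b, Mogat2, Ifitm6 and Cbr2. Ifitm6, a member of the interferon-induced transmembrane family, read 731, 739 and 741 on the B6 arrays and 2360, 2434 and 2414 on the Ts1Cje arrays (log2 difference 1.68, SE 0.04, adjusted p = 1.27e-11). Mogat2, an enzyme of triglyceride synthesis, read 136 to 142 and 500 to 519 (1.76, SE 0.057). Mrgpra2b, a Mas-related G protein-coupled receptor, rose by 1.88 from 70.9 to 77.4 in B6 cells to 305 to 325. Among the 15 largest falls were the surrogate light chain genes Vpreb1 and Vpreb2, the B-lineage genes Ebf1, Dntt and Enpep, the progenitor marker Cd34, the platelet protein Mmrn1 and the granzyme Gzma. Sprr2a1, a small proline-rich protein, fell from 1155 to 1220 in B6 cells to 317 to 370 (-1.76, SE 0.087), and Akap12, a kinase scaffold, from 200 to 269 to 63.5 to 70.4 (-1.67, SE 0.097). Cavin2, a coat protein of caveolae, Clca3a2, Mpzl2 and Slc35d3 dropped to between 22 and 31.8 on all Ts1Cje arrays, close to the dim limit of 22 to 23.5 used by the filter, so their falls of 1.68 to 1.84 in log2 are compressed at the lower end.

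**Figure D2:**
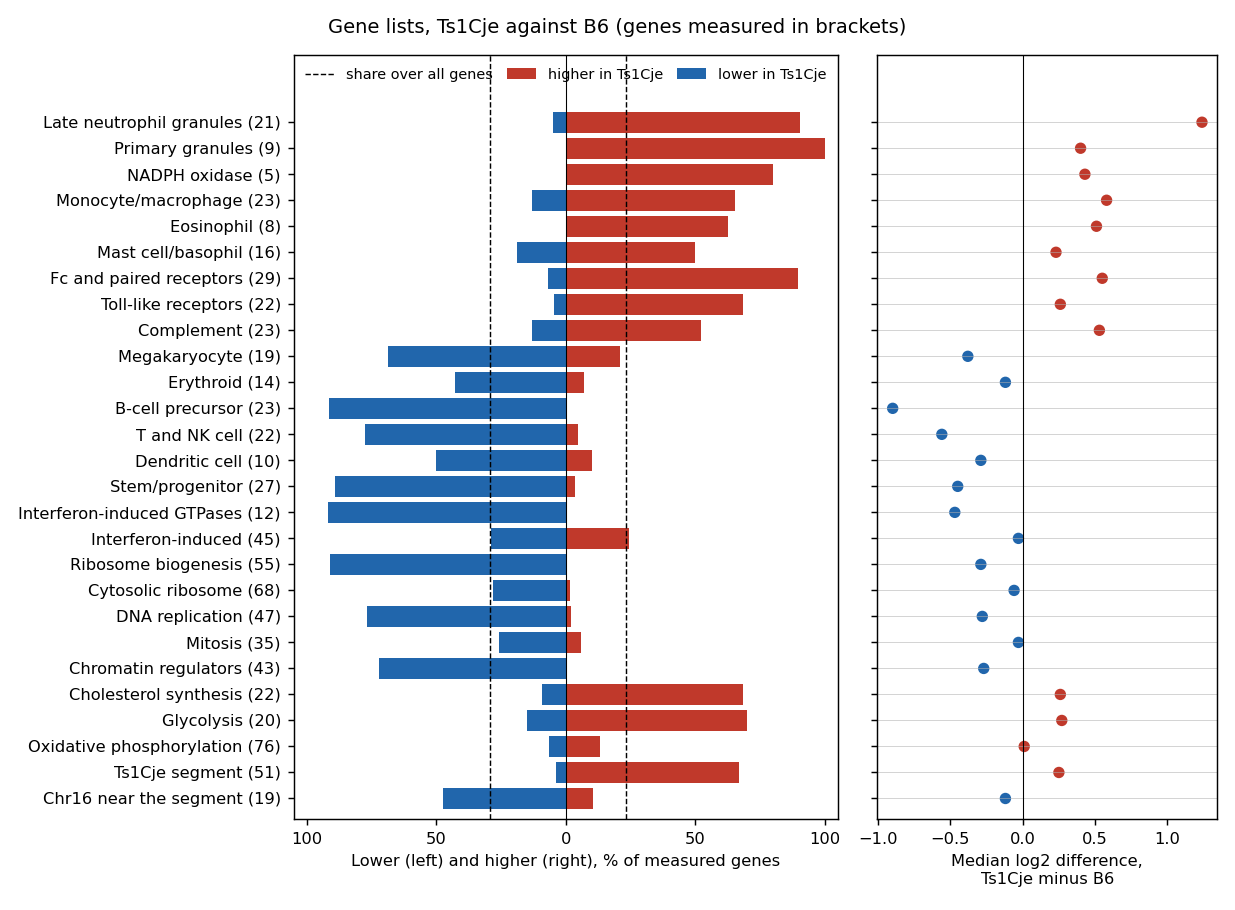
Left, share of the measured genes of 27 lists that passed the test, with lower genes to the left of zero and higher genes to the right, and dashed lines at the shares over all genes (29.3% and 23.3%). Right, median log2 difference of all measured genes of each list; late neutrophil granule genes stand highest (1.24) and B-cell precursor genes lowest (-0.90).

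Genes of late neutrophil granules and late neutrophils rose as a group. Of 21 measured genes, 19 were higher and 1 was lower, 13 of them at least 2-fold, and the median log2 difference was 1.24, beside 0.009 over all genes. Their summed intensity was 23147 to 23211 on the B6 arrays and 42185 to 42595 on the Ts1Cje arrays. Ltf (lactoferrin) read 1600, 1613 and 1610 against 3666, 3782 and 3988 (1.24, SE 0.043, adjusted p = 2.49e-10). Camp, the cathelicidin precursor, went from 1927 to 1987 to 3931 to 4159 (1.05), and Lcn2 (lipocalin 2) from 1918 to 2055 to 4145 to 4509 (1.10). For each of these granule proteins the lowest Ts1Cje array was far above the highest B6 array. Itgb2l, a beta integrin subunit, read 209, 201 and 196 in B6 and 917, 930 and 1019 in Ts1Cje cells (2.16, SE 0.044, adjusted p = 4.58e-12). A second probe set of Itgb2l gave 0.19. Ceacam10, a carcinoembryonic antigen-related protein, rose by 2.15 (149 ± 5.83 against 714 ± 45.3, mean and SD, n = 3 each), Lrg1 by 1.78, Padi4, which converts histone arginine to citrulline, by 1.61, and Olfm4, an olfactomedin of neutrophil granules, by 1.52. Fcnb (ficolin B) read 127 to 136 and 345 to 358 (1.32). Ngp was already among the brightest genes and differed less (0.64, 5157 against 8049). The exceptions were Mmp9 (gelatinase B), which fell by 0.42 from 379 to 453 to 282 to 318, and the chemokine receptor Cxcr2, which did not pass (126 against 114).

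The genes of primary granules were higher in all 9 cases, with smaller differences (median 0.40). Serpinb1a, an inhibitor of the granule proteases, had the largest rise (0.65, 1198 against 1889). Elane (neutrophil elastase) read 1951, 1727 and 1692 against 2648, 2724 and 2734 (0.59, SE 0.065, adjusted p = 7.02e-06), and Ctsc, the dipeptidyl peptidase that activates these proteases, read 3214 to 3323 against 4376 to 4562 (0.45). Lyz2 (lysozyme) differed by 0.45, Prtn3 (proteinase 3) by 0.36, Ctsg (cathepsin G) by 0.35 and Mpo (myeloperoxidase) by 0.16. Of 5 measured stefins and cystatins, which inhibit cysteine proteases, 4 were higher. Stfa3 rose from 27 to 31.8, close to the dim limit, to 187 to 223 (2.30), Stfa2l1 from 248 to 260 to 772 to 938 (1.68), Cst7 by 0.28 and Cstb by 0.20, while Cst3 did not pass (0.04). Stefin A genes are near-identical copies, and their probe sets may share signal. Among 11 genes listed for S100 calcium-binding proteins, 7 were higher and 1 was lower: S100a6 rose by 0.45, S100a9 by 0.26 and S100a8 by 0.21, and the lower gene, S100pbp (-0.67), encodes an S100-binding protein.

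Promoter windows were examined for the granule genes because they moved together. RefSeq windows of GRCm38.p6, from 250 bases before to 50 bases after each start, were matched by symbol for 10127 of the tested genes (12900 windows). The letters GAGGAAGT, on either strand, a form of the PU.1 site, were in 4 of 8 primary granule windows, beside 3.19% of all windows. A form of the C/EBP site, TTGCNNAA on either strand, was in 6 of 18 late granule windows (33.3%), beside 8.80%. The palindrome TTGCGCAA, which is one case of that form, was in none of them and in 0.24% of all windows. The 4 windows below are those of the genes with the largest rises in each list that hold the form named, and the capitals mark those letters, which in Ctsc, Ltf and Fcnb read in the reverse direction. Ltf and Elane, whose intensities are given above, hold 1 match each.
Elane, chr10:79886062-79886361, plus strand: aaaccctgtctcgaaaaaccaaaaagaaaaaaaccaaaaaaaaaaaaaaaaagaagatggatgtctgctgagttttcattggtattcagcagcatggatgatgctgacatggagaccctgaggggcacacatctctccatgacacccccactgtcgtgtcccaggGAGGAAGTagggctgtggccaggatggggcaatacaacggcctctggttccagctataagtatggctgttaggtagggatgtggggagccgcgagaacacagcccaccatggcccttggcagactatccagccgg
Ctsc, chr7:88277835-88278134, plus strand: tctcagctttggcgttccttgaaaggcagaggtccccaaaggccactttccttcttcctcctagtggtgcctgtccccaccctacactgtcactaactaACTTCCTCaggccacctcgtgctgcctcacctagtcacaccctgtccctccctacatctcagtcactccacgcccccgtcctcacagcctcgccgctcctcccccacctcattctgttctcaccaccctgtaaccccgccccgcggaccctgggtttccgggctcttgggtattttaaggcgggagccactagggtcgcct
Ltf, chr9:111019042-111019341, plus strand: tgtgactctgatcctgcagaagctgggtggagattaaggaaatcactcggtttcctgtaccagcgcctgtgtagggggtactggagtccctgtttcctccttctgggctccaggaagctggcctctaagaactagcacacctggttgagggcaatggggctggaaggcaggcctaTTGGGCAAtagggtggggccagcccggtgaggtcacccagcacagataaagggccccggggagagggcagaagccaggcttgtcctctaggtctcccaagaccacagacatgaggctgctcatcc
Fcnb, chr2:28084829-28085128, minus strand: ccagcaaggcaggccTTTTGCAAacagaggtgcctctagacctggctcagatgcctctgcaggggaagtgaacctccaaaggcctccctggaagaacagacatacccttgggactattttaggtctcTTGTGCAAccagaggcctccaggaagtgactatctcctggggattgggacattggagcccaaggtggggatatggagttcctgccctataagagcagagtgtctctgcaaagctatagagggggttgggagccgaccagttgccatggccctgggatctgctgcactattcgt
Mmp8, Slpi, Ngp and Lcn2 were the other late granule genes with a match, with rises of 0.39, 0.58, 0.64 and 1.10. The absence of these letters from a window says only that they are not in those 300 bases. Neither form was particular to the granule genes. In lists that fell, the share of windows with the C/EBP form ran from 7.84% (51 ribosome assembly windows) to 22.2% (9 windows of interferon-induced GTPases). For the PU.1 form it ran from 0.0% (21 T and NK cell windows) to 13.7% (51 ribosome assembly windows).

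Of 5 genes of the phagocyte's NADPH oxidase, 4 were higher and none was lower. Cybb, the catalytic gp91phox subunit of the NADPH oxidase, read 608, 601 and 578 against 1544, 1526 and 1520 (1.34, SE 0.043, adjusted p = 1.28e-10), with no overlap, and its 3 probe sets gave 1.34 to 1.85. The regulatory subunit Ncf4 rose by 0.54, the GTPase Rac2 by 0.43 and Cyba, the partner of Cybb, by 0.31, and Rac1 did not pass (0.08). Itgam (CD11b) read 302, 286 and 267 against 672, 723 and 722 (1.27, SE 0.05), and Itgb2 (CD18), with which it forms the complement receptor, 1322 to 1344 against 2118 to 2185 (0.68). These come from a list of 47 adhesion genes that did not move in 1 direction, with 18 higher and 14 lower (21 and 10 with median centring). The carcinoembryonic antigen-related genes Ceacam1 (1.14) and Ceacam2 (1.02) were among the higher, and the platelet integrin subunits Itgb3 (-1.16) and Itga2b (-0.98) among the lower. This list also held 3 integrin-binding proteins that are not adhesion molecules.

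Monocyte and macrophage genes were mostly higher: 15 of 23 rose, 3 fell, and the median was 0.58. F13a1, the coagulation factor XIII subunit made by monocytes, had the largest rise (688 to 749 against 1724 to 1880, log2 difference 1.29, SE 0.045). The C1q chains followed, with C1qa at 620, 600 and 601 against 1359, 1397 and 1429 (1.18), C1qc at 1.01 and C1qb at 0.86. Csf1r, the receptor for macrophage colony-stimulating factor, rose by 0.77 (adjusted p = 0.000221), the chemokine receptor Ccr2 by 0.89 and the endotoxin co-receptor Cd14 by 0.82 (97.1 to 102 against 184 to 197). Cd36, a scavenger receptor that platelets also carry, fell by 0.78, Apoe by 0.18 and Mpeg1 by 0.11. The summed intensity of the list was 16459 to 16656 on the B6 arrays and 22633 to 23460 on the Ts1Cje arrays. These are bulk samples, in which more or fewer cells of a type and more or less RNA per cell cannot be told apart, and this holds for every lineage list below.

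Receptors of the innate immune system moved with them. Of 29 Fc, Siglec, Trem, Cd300 and paired receptors, 26 were higher and 2 lower (median 0.55), led by Fcer1a and Mcemp1 (1.16). Trem3, Trem2 and Cd33 rose by 1.02, 0.99 and 0.97, Pirb by 0.88, Fcgr4 by 0.86 and the shared signalling chain Fcer1g by 0.81. The lower genes were Siglecg (-0.67), a B-cell Siglec, and Treml2 (-0.27). Of 22 genes of Toll-like receptor signalling, 15 were higher and 1 lower (median 0.26). Lbp, the endotoxin-binding protein, rose by 0.76, Tlr2 by 0.67, Tlr6 by 0.66, the inhibitory kinase homologue Irak3 by 0.62 and Tlr4 by 0.58, while Irak1 fell by 0.33. Of 17 C-type lectin receptors, 10 were higher and 3 lower, with Clec4e (Mincle) at 1.09, Clec5a at 0.80 and Clec4a2 at 0.78, against Clec4d at -0.28. Complement and coagulation genes divided 12 higher to 3 lower of 23 (median 0.53), with factor X at 0.72 and the receptors C3ar1 and C5ar1 at 0.72 and 0.71. Lysosomal proteases and hydrolases divided 17 higher to 3 lower of 24, led by Lgmn (legumain, 0.57), with Ctsw (-0.80) and Ctsk (-0.66) as the exceptions.

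Eosinophil and basophil granule genes were also higher, though most of them sat on few strong genes. Rnase2a read 1366, 1244 and 1360 against 4248, 4210 and 4323 (1.68, SE 0.042), Prg2 (major basic protein) 177 to 184 against 394 to 409 (1.09), and Epx (eosinophil peroxidase) 165 to 195 against 347 to 442 (0.99). Prg3 and Rnase2b differed by 0.49 and 0.54 at intensities under 100. The defining receptors Il5ra (29.5 against 29.2) and Siglecf (22.7 against 23.8) were dim in both groups and did not pass. The summed level of the 8 genes was 1733 to 1886 and 5140 to 5298. Of 16 mast cell and basophil genes, 8 were higher and 3 lower (median 0.23). Fcer1a, the IgE-binding chain, read 41.3, 43.9 and 46.6 against 272, 229 and 238 (2.14, SE 0.055, adjusted p = 1.67e-11), and Mcpt8, a basophil protease, 1377 to 1429 against 2627 to 2879 (0.95). Ms4a2, the beta chain of the same receptor, rose by 0.50. Tph1, which begins serotonin synthesis, fell by 0.60 and the mast cell chymase Cma1 by 0.46, both from a low level, Il4 fell by 0.58, and the tryptases Tpsab1 and Tpsb2 were dim in both groups. Of 14 genes of arginine metabolism and alternatively activated macrophages, 10 were higher and 2 lower, with Retnla at 0.68, Arg2 at 0.60 and Arg1 at 0.21.

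B-cell precursor genes formed the group with the deepest falls. Of 23 measured genes 21 were lower and none was higher, 10 of them at least 2-fold, with a median of -0.90, and their summed intensity was 11241 to 11474 on the B6 arrays and 4647 to 4829 on the Ts1Cje arrays. Vpreb2 read 824, 815 and 789 against 193, 165 and 182 (-2.08, SE 0.067, adjusted p = 1.28e-10), and Vpreb1 1911, 1814 and 1918 against 622, 560 and 577 (-1.66). These surrogate light chain genes are near-identical copies and their probe sets may share signal. Vpreb3 fell by 1.35. Dntt, the terminal transferase that adds bases at receptor joints, read 594, 624 and 631 against 176, 146 and 155 (-1.86, SE 0.076), and Rag1, of the recombinase, fell to 30.7 to 39.6 (-1.24). Ebf1, the transcription factor that specifies the lineage, read 386, 353 and 398 against 120, 80.1 and 85.6 (-1.85, SE 0.099), and its 3 probe sets gave -2.47 to -1.67. Enpep, the peptidase known as BP-1 on early B cells, fell by 2.07 (202 to 234 against 34.3 to 50.1). On Ts1Cje array 1 Ebf1, Dntt, Enpep and Vpreb1 were each above the other Ts1Cje arrays and still far under all B6 arrays. Pou2af1, a coactivator of immunoglobulin genes, fell by 1.33, the adaptor Blnk by 1.21, the kinase Blk by 1.10, Ms4a1 (CD20) by 1.02, Cd79b by 0.92 and Cd79a by 0.62. Pax5 (23.1 against 22.5) and Ighm (27.3 against 25.1) were dim in both groups and did not pass.

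T and NK cell genes were lower as well, from lower levels. Of 22, 17 fell and 1 rose, with a median of -0.56 and summed intensities of 2287 to 2400 and 1507 to 1522. Il2rb, a subunit of the IL-2 and IL-15 receptors, read 161, 181 and 164 against 49.8, 55.3 and 51.2 (-1.45, SE 0.055). The transcription factors Lef1 (-1.15) and Gata3 (-1.11) fell to 31.2 and 26.8, and Bcl11b from 140 to 159 to 63.4 to 68.9. The receptor chains Cd3g (-0.88), Cd3d (-0.82) and Cd247 (-0.60), and Cd8a (-0.80), fell, whereas Cd3e did not pass (80.5 against 75.7) and Cd4 was dim in both groups. Notch1 was the gene that rose (0.30). Of 10 cytotoxic granule genes 3 were lower and 2 higher, and with median centring 3 and 4: Gzma fell from 327 to 332 to 81.2 to 108 (-1.72, SE 0.073), Serpinb9 by 0.38 and Fasl by 0.37, while Nkg7 rose by 0.74 and Gzmb by 0.60. Of 10 dendritic cell genes 5 were lower and 1 higher, with the chemokine receptor Ccr9 at -0.98, the plasmacytoid factor Tcf4 at -0.83 and Cd209a at 0.45.

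A stretch of chromosome 6 held several of these lower genes together. Over 12200 windows of 15 neighbouring measured genes in the reference order, the one running from Lrrc61 to Tmem176a had the lowest median (-0.745), with 11 genes lower and 1 higher. It covers the Gimap cluster, whose GTPases are known for the survival of lymphocytes. Gimap8 read 455, 456 and 459 against 217, 198 and 195 (-1.12, SE 0.055), Gimap6 fell by 1.07, Gimap1 by 1.03 and Gimap4 by 0.97, and the neighbouring Tmem176b by 0.91. These genes, apart from Gimap1, were singled out after their values were seen. A window on chromosome 17 from Fpr-rs3 to Zfp943 had a median of -0.408 with 12 genes lower and none higher.

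Stem and progenitor genes were lower in 24 of 27 cases, with 1 higher and a median of -0.45. Cd34 read 387, 386 and 372 against 137, 111 and 119 (-1.54, SE 0.071, adjusted p = 2.36e-09). Meis1, a homeobox regulator of stem cells, read 206 to 223 against 71.8 to 82.5 (-1.33), although a second probe set gave 0.02, and Sox4 1211 to 1228 against 478 to 541 (-1.23), with the same sign in 5 probe sets. Msi2, an RNA-binding regulator of stem cells, fell by 0.93, Myb by 0.56, the receptor Flt3 by 0.56 and Kit, the stem cell factor receptor, by 0.32. Gata2 did not pass (345 against 363). Prom1 (CD133) went the other way, from 359 to 393 to 829 to 860 (1.14, SE 0.059). Of 13 Hox, Meis and Pbx genes, 5 were lower, and after Meis1 the differences were small, with Hoxa5 at -0.27 and Hoxa9 at -0.20. Their median of -0.06 became 0.02 with median centring.

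Megakaryocyte genes were lower in 13 of 19 cases and higher in 4, with a median of -0.38. Itgb3 and Itga2b, which form the fibrinogen receptor of platelets, read 780 to 824 against 335 to 374 and 431 against 211. Gp5, of the von Willebrand factor receptor, read 161, 150 and 153 against 58.6, 53.7 and 87.7 (-1.08, SE 0.11), its partner Gp1bb fell by 1.15, and Vwf itself by 0.95. Rab27b, which serves granule release, fell by 1.61, Selp (P-selectin) by 0.80 and the thrombin receptors F2r and F2rl3 by 0.78 and 0.59. The brightest platelet genes differed little, with Pf4 (platelet factor 4) at 4219 to 4303 against 3876 to 4030 (-0.11) and Ppbp at 0.19. Gp6 (0.31) was higher at a dim level. The summed level of the list was 12005 to 12268 on the B6 arrays and 9877 to 10044 on the Ts1Cje arrays. Of 14 erythroid genes 6 were lower and 1 higher. Hba-a1 read 968 to 1002 against 467 to 473 (-1.04), Hbb-b2 876 to 900 against 454 to 465 (-0.94), Car2 806 against 387 (-1.03) and Hemgn 187 against 89.2 (-0.96). Hba-a2, a near-identical copy of Hba-a1, did not pass (97.9 against 103), and the 2 probe sets cannot be assigned to either copy with certainty.

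The letters AGATAA on either strand, the usual GATA site, were in 7 of 15 megakaryocyte promoter windows (46.7%), beside 6.96% of all windows. Of the genes with a match, Gp5 and F2rl3 had the largest falls, and their windows are shown with the site in capitals, where it reads in the reverse direction.
Gp5, chr16:30310732-30311031, minus strand: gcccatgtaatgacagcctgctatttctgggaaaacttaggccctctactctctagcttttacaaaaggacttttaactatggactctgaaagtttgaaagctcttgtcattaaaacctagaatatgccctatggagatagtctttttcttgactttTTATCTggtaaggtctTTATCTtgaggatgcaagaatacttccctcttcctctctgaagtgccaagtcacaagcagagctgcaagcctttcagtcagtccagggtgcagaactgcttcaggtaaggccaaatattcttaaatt
F2rl3, chr8:72761409-72761708, plus strand: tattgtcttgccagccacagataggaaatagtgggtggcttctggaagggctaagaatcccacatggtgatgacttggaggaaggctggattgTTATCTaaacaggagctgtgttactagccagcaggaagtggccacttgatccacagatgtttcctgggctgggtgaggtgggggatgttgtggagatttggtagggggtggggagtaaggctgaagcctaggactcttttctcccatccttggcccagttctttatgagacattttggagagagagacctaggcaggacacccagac
The other matches were in Clec1b (-0.20), F2rl2 (-0.15, which did not pass), Pf4, P2rx1 (0.12) and Gp6 (0.31), so windows with the site were found among lower and higher genes.

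Transcription factors of the lineages moved in both directions. Of 20 GATA-linked factors, 9 were lower and 6 higher, and with median centring 7 and 8. Zfpm1 (FOG1) read 133, 147 and 139 against 42.8, 38 and 47.4 (-1.43, SE 0.065), Tal1 412 to 464 against 190 to 208 (-1.11), Gata1 195 to 201 against 88.5 to 118 (-0.91), and Gfi1b fell by 0.85. Mitf, the melanocyte and mast cell factor, rose by 0.55. Of 29 myeloid and lymphoid factors, 14 were higher and 10 lower. Bach2 (372 to 379 against 114 to 143, log2 difference -1.41) and Spib (473 to 491 against 212 to 244, -1.01), both at work in B and plasmacytoid dendritic cells, fell, as did Irf8 (-0.51). Maf rose by 0.87, Cebpd by 0.64, Gfi1, a transcriptional repressor that neutrophil development requires, by 0.52, Spi1 (PU.1) by 0.47, Cebpa by 0.35 and Cebpb by 0.33. For Spi1 the arrays read 680, 614 and 617 against 928, 864 and 877, and for Cebpa 409, 384 and 407 against 501, 507 and 533, without overlap in either case.

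Receptors for cytokines also moved in both directions. Of 36, 13 were higher (36.1%) and 10 lower (27.8%), beside 23.3% and 29.3% over all genes. With median centring 18 were higher and 8 lower. Il1r2, the IL-1 decoy receptor of neutrophils, rose by 0.77, and the shared beta chains of the IL-3 family receptors, Csf2rb and Csf2rb2, by 0.23 and 0.35, while Il3ra did not pass (0.16). Il1r1 fell by 0.75 and Lifr by 0.64. In the JAK-STAT list 12 of 29 genes were lower and 6 higher: Pim2, a survival kinase induced by STAT5, read 498, 533 and 498 against 210, 198 and 217 (-1.23), Bcl6 fell by 0.73 and Jak3 by 0.61, and Stat6 rose by 0.53. Stat5a, Stat3, Jak2 and Pim1 did not pass. Of 25 ERK feedback genes 12 were lower and 6 higher (9 and 8 with median centring), with Dusp10 at -0.99, Ccnd1 (cyclin D1) at -0.86 and Dusp2 at -0.83 against Trib3 at 0.57. Immediate early genes divided 6 lower to 3 higher of 20, and NF-kB targets 10 lower to 5 higher of 28, with Cd83 at -0.75 against the acute-phase gene Saa3 at 1.05. Chemokine and cytokine genes were near the shares over all genes. Among 47 chemokine genes, 13 were lower and 12 higher, from Cxcr6 (-1.25) to Ccr2 (0.89). Among 37 cytokine genes, 11 were lower and 10 higher, from Kitl (-0.93) to Tnfsf13 (0.73). Kitl turned to 0.17 with an offset of 1 in place of 15, so its direction is not settled. With median centring the last 4 lists divided otherwise: 6 higher to 2 lower for immediate early genes, 9 to 9 for NF-kB targets, 19 to 11 for chemokine genes and 18 to 7 for cytokine genes.

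Interferon-induced GTPases fell while interferon-induced genes at large did not. Of 12 members of the IRG and GBP families, which attack the vacuoles of intracellular pathogens, 11 were lower and none higher (median -0.47), and their summed intensity was 4955 to 5012 against 3326 to 3344. Tgtp1 read 1025, 1035 and 1023 against 418, 412 and 422 (-1.27, SE 0.031, adjusted p = 1.36e-11), Igtp 635 to 652 against 393 to 413 (-0.66), Iigp1 50.8 to 54.1 against 26.8 to 28 (-0.67) and Gbp2 516 against 336 (-0.60). Tgtp1 has a near-identical neighbour, Tgtp2, whose signal its probe set may include. Gbp4 was dim and did not pass. Of 45 other interferon-induced genes 13 were lower and 11 higher, near the shares over all genes, with Slfn8 and Ifi203 (-0.47 each) at the lower and Oas1g (0.68) at the upper end. Mx1, which is trisomic, was dim (21.6 against 26.2) and did not pass. The median of this list was -0.03, and 0.03 after quantile normalization, and with median centring 15 were higher and 6 lower. Whether the IRG and GBP list differed from this one was not tested.

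The core of the interferon-stimulated response element, on either strand, was in 7 of 9 promoter windows of the IRG and GBP genes (77.8%) and in 42.9% of the 42 windows of the other interferon-induced genes, beside 2.93% of all windows. The windows of the matched pair with the largest falls are shown because this group moved together, with the element in capitals.
Tgtp1, chr11:48992197-48992496, minus strand: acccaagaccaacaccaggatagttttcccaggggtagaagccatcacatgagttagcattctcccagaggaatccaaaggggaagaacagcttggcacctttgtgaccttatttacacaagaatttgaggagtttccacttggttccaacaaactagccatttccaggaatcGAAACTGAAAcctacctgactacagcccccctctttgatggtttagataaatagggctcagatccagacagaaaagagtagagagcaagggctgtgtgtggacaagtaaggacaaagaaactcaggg
Igtp, chr11:58199306-58199605, plus strand: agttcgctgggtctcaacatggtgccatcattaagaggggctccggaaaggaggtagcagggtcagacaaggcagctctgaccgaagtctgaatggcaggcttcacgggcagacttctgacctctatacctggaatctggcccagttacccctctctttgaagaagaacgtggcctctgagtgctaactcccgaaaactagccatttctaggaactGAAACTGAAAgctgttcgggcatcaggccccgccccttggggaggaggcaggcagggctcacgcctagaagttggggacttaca
The element began 77 bases before the start in Tgtp1 and 34 bases before it in Igtp. In the other matched genes of the list, Gbp2, Gbp3, Irgm1, Irgm2 and Gbp7, falls ranged from -0.60 to -0.15.

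Among 19 genes of MHC class I presentation, 7 were lower and 2 higher. Nlrc5, the transactivator of class I genes, read 412 to 432 against 240 to 249 (-0.75), and H2-Q4, a non-classical molecule, fell by 0.85 with a wide spread between Ts1Cje arrays (401, 251 and 314). The classical H2-K1 did not pass (-0.05) and H2-D1 was higher by 0.12. Of 17 class II genes 5 were lower and 5 higher (29.4% each), beside 29.3% and 23.3% over all genes. H2-Ob (-0.98) and H2-Oa (-0.66), which form the inhibitor of peptide loading found in B cells, and the transactivator Ciita (-0.81) fell, while the lysosomal reductase Ifi30 (0.32) and the ligase Marchf1 (0.40) rose.

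Genes of ribosome assembly were lower almost throughout. Of 55, 50 passed as lower and none as higher, with a median of -0.29 and a range from -0.64 to -0.08. Noc2l, a nuclear export factor of pre-ribosomes, read 610, 637 and 628 against 428, 370 and 391 (-0.64), Dkc1, the pseudouridine synthase dyskerin, 1599 to 1674 against 1111 to 1157 (-0.54), and Nop56, a box C/D core protein, 1638 to 1764 against 1179 to 1227 (-0.51). With median centring 40 of the 55 were lower and none higher (median -0.21). Myc, which drives these genes in many cells, read 1028, 1051 and 1071 against 754, 660 and 695 (-0.57, SE 0.06, adjusted p = 5.19e-06). In the list of 13 genes of the MYC network 3 were higher and 3 lower, near the shares over all genes; the higher ones were the MYC antagonists Mxi1 (0.67) and Mxd1 (0.62), and Mlx (0.56). The letters CACGTG, the E-box that MYC and its partners bind, were in 19.6% of the 51 ribosome assembly windows and 9.36% of all windows. They were not particular to that list: 22.2% of the 18 late granule windows and 28.6% of the 21 cholesterol windows, lists that rose, held them too. None of the 20 B-cell precursor windows held them. Other pairs of list and motif were also counted, on either strand. The EBF1 palindrome was in 1 of 20 B-cell precursor windows (5.0%, beside 0.984% of all windows). The SREBP element TCACNCCAC was in 1 of 21 cholesterol windows (4.76%, beside 1.25%). The E2F site TTTCCCGC was in 6 of 49 replication windows (12.2%, beside 1.80%). Cytosolic ribosomal proteins themselves moved little: 19 of 68 were lower and 1 was higher with a median of -0.06, which with median centring became 1 and 1. The higher one was Rpl39l (0.88), a paralogue with restricted expression, and the largest fall was Rpl14 (-0.50), from a dim probe set. Of 73 mitochondrial ribosomal proteins 26 were lower and 6 higher, and with median centring 4 and 13, so the direction of this list was set by the scaling.

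DNA replication genes followed the same pattern, with 36 of 47 lower, 1 higher and a median of -0.28. With median centring 31 were lower and 3 higher. Cad, which begins pyrimidine synthesis, read 576 to 583 against 355 to 398 (-0.61), the polymerase subunits Pole and Pola1 fell by 0.53 and 0.48, and Uhrf1 by 0.48. Chaf1b, which lies on the trisomic segment, was the one that rose (175, 185 and 166 against 218, 220 and 227, log2 difference 0.31). Mitotic genes differed little: 9 of 35 were lower and 2 higher, the median was -0.03 (0.05 with median centring), and Mki67 (2569 against 2428), Plk1 and Aurkb did not pass. Nek2 (-0.39), Mybl2 (-0.30) and Top2a (-0.22) fell, and Kif2c (0.22) rose. With median centring 8 were higher and 3 lower. Of 17 cyclins, their kinases and E2F factors 9 were lower and 2 higher, with Cdk6 at -0.55 and E2f2 at 0.34. Among CDK inhibitors and p53 targets 11 of 30 were lower and 6 higher (9 and 8 with median centring), with Gadd45g at -0.63 and Cdkn2d at 0.46, and Cdkn1a fell by 0.16. Histone genes divided 5 lower to none higher of 13, and 4 to none with median centring, where their median turned from -0.06 to 0.02.

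The ribosome assembly, replication and chromatin lists moved on the same arrays as the lineage lists above, among them the B-cell precursor sum that fell from 11241 to 11474 to 4647 to 4829, and the part of the cell types in these results was not tested. Chromatin regulators fell in 31 of 43 cases and rose in none (median -0.27), and in 25 with 3 higher under median centring. Dnmt3b, a de novo DNA methyltransferase, read 463, 474 and 471 against 229, 213 and 211 (-1.06, SE 0.04, adjusted p = 5.08e-10), and Ezh2, the Polycomb methyltransferase, 1233 to 1274 against 755 to 831 (-0.64). Bmi1 fell by 0.39 and Nsd1 by 0.44, while Tet2, Dnmt3a and Dnmt1 did not pass. Of 20 members of the BCL2 family 6 were higher and 3 lower: Bcl2 read 421 to 432 against 224 to 253 (-0.80) and Bcl2l11 (Bim) fell by 0.36, Mcl1 did not pass, and Bnip3, a mitophagy receptor, rose from 414 to 441 to 916 to 939 (1.09, SE 0.043).

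Sterol and lipid genes were higher. Of 22 genes of cholesterol synthesis and its control, 15 rose and 2 fell (median 0.26), and with median centring 17 and 1. Fdps, which makes farnesyl diphosphate, read 1984, 2035 and 2027 against 3374, 3358 and 3413 (0.74, SE 0.033, adjusted p = 1.59e-09), Mvd rose by 0.65 and Sc5d by 0.62. Scap, the sensor that escorts SREBP, fell by 0.48, and Srebf2, Hmgcs1 and Idi1 did not pass. Of 34 fatty acid and triglyceride genes 15 were higher and 4 lower (21 and 1 with median centring). Dgat1 and Dgat2, which close triglyceride synthesis, rose by 0.93 (253 to 265 against 506 to 516) and 0.87, the lipid droplet protein Plin3 by 0.81 and Scd1 by 0.48. All but Apoe and Nr1h3 of 8 sterol efflux genes were higher, by 0.25 (Abcg3) to 0.54 (Lpcat3). The list of 23 eicosanoid genes was mixed, with 9 higher and 5 lower (13 and 3 with median centring). Its higher genes included the leukotriene synthesis genes Alox5 (295 to 310 against 466 to 504, log2 difference 0.65), Lta4h (0.61) and Alox5ap (0.58), with the leukotriene B4 receptor Ltb4r1 (463 to 505 against 904 to 942, 0.91). The prostaglandin receptor Ptger3 fell by 0.95.

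Glycolytic genes were higher in 14 of 20 cases and lower in 3 (median 0.27), from Slc16a3, the lactate exporter, at 0.95 and Aldoc at 0.93, both at intensities near 100 or lower, through Hk3 (0.41) and Slc2a1 (0.39) to Slc16a1 at -0.38. Of 25 hypoxia-induced genes 12 were higher and 2 lower, led by Bnip3 and Mxi1. Oxidative phosphorylation did not move as a group, with 10 of 76 higher and 5 lower and a median of 0.01. Its largest rises were Atp5o (0.36), which lies on the trisomic segment, and Ndufv3 (0.29). With median centring these counts were 20 and 1. Of 25 genes of iron and haem handling 11 were higher and 2 lower, with Alas1, the first enzyme of haem synthesis, at 0.78 and Tfr2, an erythroid iron receptor, at -0.99. Antioxidant genes divided 11 higher to 10 lower of 33 (33.3% and 30.3%, beside 23.3% and 29.3% over all genes), from Gstm1 (1.03) to Gclc (-0.52). Endoplasmic reticulum and integrated stress genes divided 20 to 7 of 40, with Nupr1 (0.70) and Trib3 at the upper end, and proteasome genes 4 to 8 of 43 (10 to 3 with median centring). Amino acid transporters divided 7 higher to 8 lower of 21 (11 to 6 with median centring), from Slc7a2, which imports arginine (1.08), to Slc43a1 (-0.77). Serpins divided 5 higher to 3 lower of 19 (26.3% and 15.8%). Markers of stroma and endothelium were lower in 10 of 18 cases and higher in 3, and with median centring 7 were lower and 5 higher. Sparc fell by 1.02 (334 against 158) and Cxcl12 by 0.70 from a dim level, Fn1 rose by 0.83, and Col5a1, Pdgfrb and Dcn were dim and did not pass. The summed stromal level was 6082 to 6280 against 6153 to 6520, and the part of such cells in the results was not tested.

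Genes of the extra chromosome segment were higher in most cases. In the deposited intensities a minority of them reached the 1.5-fold that the number of copies gives. Of 64 such genes with a probe set of their own, 51 were measured, and 34 of these were higher (66.7%) and 2 lower. Among the 365 measured chromosome 16 genes outside this list, a few of which lie within the segment, 23.6% were higher. With median centring 42 of the 51 were higher and 2 lower, and their median log2 difference of 0.25 became 0.32. The median ratio of the 51 genes' deposited intensities was 1.22 (interquartile range 1.11 to 1.48), and 12 genes reached 1.5. Among the 34 with a mean intensity of at least 100, 28 were higher and 2 lower, with a median ratio of 1.29, and all 12 at or above 1.5 were among them. Background in dim probe sets can lower such ratios, and the scaling between arrays can shift them. The part of either here was not tested. Tmem50b had the largest difference in this list, which does not hold Itgb2l (777, 804 and 767 against 1593, 1571 and 1630, log2 difference 1.02, SE 0.036), followed by Cbr3 (0.94), Itsn1 (0.82), Il10rb (0.75), Vps26c (0.74), Ifngr2 (0.72), Synj1, Ifnar2 and Cryzl1 (0.71 each) and Ifnar1 (0.64). The 4 receptor subunits for interferons and IL-10 thus all rose, Ifnar2 from 714 to 746 to 1188 to 1224 and Ifngr2 from 504 to 590 to 867 to 970. Of the transcription factors, Ets2 rose by 0.59 (265 to 281 against 413 to 414) and Runx1 by 0.29, and the kinase gene Dyrk1a by 0.22. Rcan1, the calcineurin inhibitor, did not pass (214 against 242). Against the dosage, Erg fell from 299 to 307 to 216 to 270 (-0.34, SE 0.064), a second probe set giving 0.04, and Hmgn1 from 2627 to 2708 to 2060 to 2227 (-0.31, SE 0.043).

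**Figure D3:**
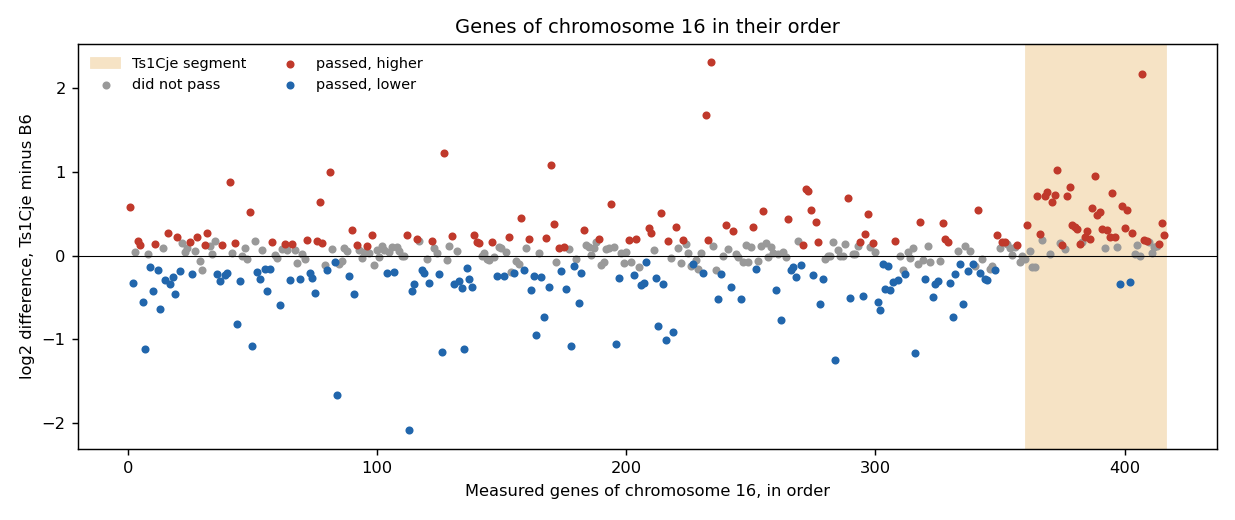
Log2 difference of the 416 measured genes of chromosome 16 in the order of the reference, grey where the test was not passed, red and blue where the gene was higher or lower. Within the shaded Ts1Cje segment 37 of 56 genes were higher and 2 lower, against 83 and 124 of the 360 before it.

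Along chromosome 16 the medians differed on either side of the start of the segment. The 26 measured genes nearest before the segment had a median of -0.02, with 5 higher and 7 lower, whereas the 56 within it had a median of 0.23. The window of 15 genes from Cfap298 to Itsn1 had the highest median of all windows on any chromosome (0.644, with 10 higher and none lower). Genes before the segment that are often studied with it had the levels of 2 copies or went their own way: Sod1 (2037 to 2120 against 1960 to 2092) and Tiam1 did not pass, Nrip1 fell by 0.73, and App, which lies outside the segment, rose from 1806 to 1896 to 2634 to 2771 (0.54, SE 0.039). Itgb2l and Stfa3 also lie on chromosome 16, Itgb2l within the segment and Stfa3 before it, and their differences of 2.16 and 2.30 are far above those of the segment's other genes.

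Dnah11, an axonemal dynein heavy chain of cilia near the end of chromosome 12, had the largest difference of all genes. Its single probe set read 78.5, 69.4 and 70.1 on the B6 arrays and 1300, 1327 and 1367 on the Ts1Cje arrays (3.94, SE 0.065, adjusted p = 6.15e-13). Sp4, the next measured gene, fell from 85.7 to 91.6 to 29.6 to 40.8 (-1.08, SE 0.11), a second probe set giving -0.01, and on the other side Cdca7l fell by 0.37 (437 to 467 against 329 to 360) and Rapgef5 by 0.21. Of 15 measured genes listed for this junction, 9 are on chromosome 12 in the reference, where 2 were higher (Dnah11 and Esyt2, 0.28) and 4 lower. The other 6 are on chromosomes 5 and 6, among them Gpnmb (0.36) and Il6 (0.27).

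The genotype difference was measured again in the Trib1 leukaemia lines, which share no array with this comparison. Over all genes 6109 (48.6%) passed the test of the difference between the settings. The genes counted next were chosen by their difference without Trib1, which is a part of that test. Such genes pass it unless the difference is much the same with Trib1, so their shares cannot be compared with the 48.6%. Of the 63 genes at least 2-fold higher without Trib1, 62 passed that test. Of all 63, 47 were lower in the Ts1Cje lines than in the B6 lines with Trib1, 12 did not pass there and 4 were higher in both settings. Of the 102 at least 2-fold lower, all passed it: 58 did not pass with Trib1, 24 were lower in both and 20 were higher with Trib1. The shares of all genes that were higher or lower with Trib1 are not given here, so these counts cannot be set against them. Dnah11 was the exception among the rises, with 3.82 with Trib1 and an interaction of -0.12 (adjusted p = 0.303). Fcer1a was higher in both settings (2.14 and 0.92). The late granule list had a median of -1.04 with Trib1, opposite to its 1.24 without it.

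**Figure D4:**
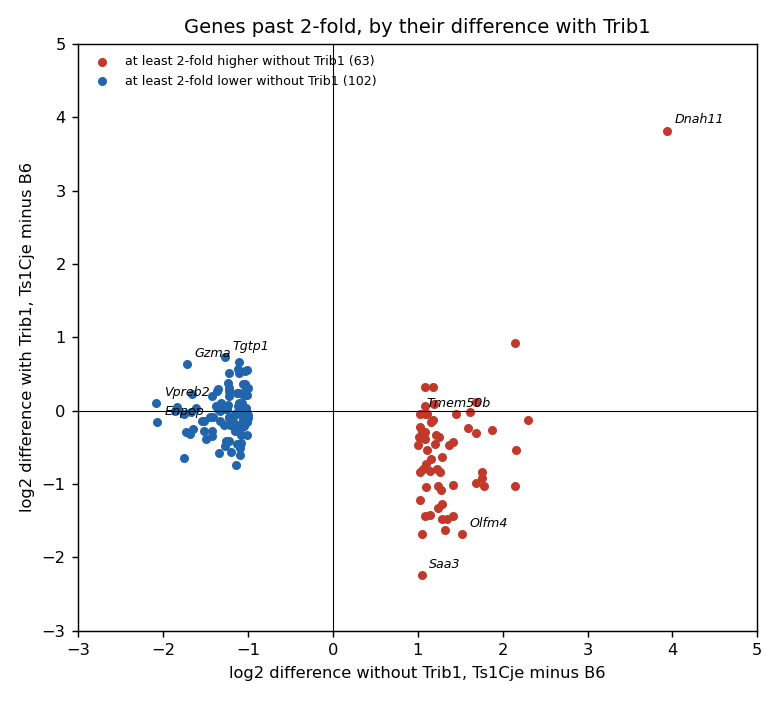
Genotype difference (log2, Ts1Cje minus B6) with Trib1 against that without Trib1, for the 63 genes at least 2-fold higher (red) and the 102 at least 2-fold lower (blue) without it. Most red points lie below zero on the vertical axis and the blue points spread around it. Dnah11 lies farthest to the right, and it is 1 of 4 red genes that passed as higher in both settings.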

How the data were processed

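Affymetrix arrays with perfect-match probes were made from 100 ng of total RNA per sample. The authors deposited linear intensity values, 1 per probe set and array; MAS5 is named in the submitters' processing notes, without a version. Arrays of this kind carry no mismatch probes, so the exact summarisation, and the scaling between arrays, are not settled. The genome build is not given in the sources used here, and arrays have no read depth: their number limits the precision.

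From the deposited intensities, log2(intensity + 15) was computed, the offset being close to the 20th percentile (14.74). Control probe sets were left out. Of 45141 probe sets, 28898 carry 1 gene symbol, 551 several and 15588 none, and only the first were named, with symbols and chromosomes from RefSeq (GRCm38.p6). Probe sets above their array's 40th percentile (22 to 23.5) on at least 3 of the 12 arrays were kept, and each gene was given by its kept probe set of highest mean. In 4845 genes with several probe sets, all had the same sign in 66.6%. limma 3.58.1 (R 4.3.3) was fitted to all 12 arrays with 1 mean per group. Its moderated test was adjusted by Benjamini and Hochberg over 12560 genes, with calls at 0.05 and, as a second rule, at 2-fold. The script was tested on simulated data.

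Genes were named by rule: the 15 largest rises and 15 largest falls without overlap, and in each of 68 lists the 4 smallest adjusted p-values with the largest rise and fall, or the whole of short lists. Further members are named to complete a list and were chosen after their values were seen. Members and lists were chosen with earlier results of these data known. Lists are described by counts and medians, without a test. Alternatives covered the scaling, offset, filter, choice of probe set, arrays in the fit, the replicate block and each array left out.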

Additional observations from a re-analysis of the deposited data

Results flagged for a closer look

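Among 358 named genes, 301 passed the test of the difference between the genotype effects with and without Trib1 (limma, interaction term, Benjamini-Hochberg adjustment over all genes), and 115 passed in both settings in opposite directions. Over all 12560 genes 6109 (48.6%) passed the first and 1260 met the second. The named genes were mostly chosen for small p-values or large differences without Trib1, so nothing is read from their higher shares. The 23 whose effects differed by at least 2 on the log2 scale are given here, as the effect with Trib1 minus that without it; their adjusted p-values ran from 3.44e-12 to 1.09e-06.

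In 21 of them the gene was higher in Ts1Cje cells without Trib1 and lower with it. The neutrophil and granule genes were Olfm4 (-3.20), Ceacam10 (-3.18), Lrg1 (-2.80), Itgb2l (-2.69) and Chil1 (-2.67), with the oxidase subunit Cybb (-2.81) and the integrin subunit Itgam (-2.35). The eosinophil granule genes Epx and Prg2 differed by -2.68 and -2.52. Genes of monocytes and of receptors were F13a1 (-2.56), Cd14 (-2.26), Csf1r (-2.05), Trem3 (-2.24), Clec5a (-2.23), Clec4a2 (-2.03) and Mrgpra2b (-2.14). The others were the acute-phase gene Saa3 (-3.29), Ifitm6 (-2.67), Mogat2 (-2.60), Prom1 (-2.57) and the glutathione transferase Mgst1 (-2.01).

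In 2 the order was turned: the GTPase Tgtp1 (2.00) and the granzyme Gzma (2.36) were lower without Trib1 and higher with it.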

How the results depend on the processing

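The numbers of higher and lower genes were 2925 and 3677. With median centring they were 4719 and 2538. Leaving out 1 array at a time gave 2287 to 3337 higher and 3173 to 3863 lower, and 62 to 70 and 94 to 127 at 2-fold, beside 63 and 102. With Ts1Cje array 1 as the only Ts1Cje array, chosen after seeing the data, which assumes that it varies like the other groups, 1863 were higher and 2298 lower. Of the 358 named genes, 332 kept their direction and call with median centring, 349 with quantile normalization and 325 with that single array. Kitl turned to 0.17 with an offset of 1 and with a floor in place of the offset, and with the mean of probe sets Nr4a3 turned to 0.02 and Ttc3 to -0.00; the cause was not tested. With the replicate number as a block 2768 were higher and 3584 lower, and 63 and 102 at 2-fold. After each group's mean was subtracted, same-numbered B6 and Ts1Cje arrays had correlations across genes of -0.26, -0.03 and -0.18. With 3 arrays per group these values cannot decide whether same-numbered arrays share a batch or a pairing. Dim probe sets limit the size of a measurable fall, since background holds their intensity up.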
